A study of Mus musculus with 9 samples.

Results

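Primitive endoderm genes were followed in mouse embryonic stem cells (mESC) as these left the naive state with or without nitric oxide. The set comprised 8 genes chosen by name as markers of that lineage: *Gata6*, *Gata4*, *Sox7*, *Hnf4a*, *Pdgfra*, *Dab2*, *Amn* and *Sparc*. All 8 were among the 29069 genes measured, and 7 of them were among the 18156 genes with a mean above 5, which were tested. *Sox7* fell short of that minimum.

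The cells belonged to the established D3 line, kept without feeder cells, and total RNA was sequenced at 24 h in 3 samples per medium. GS, the ground-state medium, was serum-free and contained 1 μM PD0325901, which blocks MEK, 3 μM CHIR99021, which blocks GSK-3, and 20 ng/mL leukaemia inhibitory factor. DM, the differentiation medium, contained 10% fetal bovine serum and none of these agents. The NO medium was DM with 250 μM of the nitric oxide donor DETA/NO. The basal medium was N2B27 for GS and DMEM with glucose, glutamine and 2-mercaptoethanol for DM and NO. GS thus differed from both others in basal medium, serum, inhibitors and LIF at once, and NO and DM in 1 agent alone. Each sample came from its own dish of this single line, but the labels do not say whether the dishes were independent experiments, so p-values measure the spread between these samples.

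The primitive endoderm is the extraembryonic layer that forms beside the epiblast inside the blastocyst and gives rise to the visceral and parietal endoderm of the yolk sacs. FGF signaling through MEK and ERK favors the transcription factor Gata6 over the epiblast factor Nanog in its precursors, and Pdgfra, Sox17, Gata4 and Sox7 are known to follow. The mature layers take up material through a receptor complex of cubilin and amnionless, with megalin and the adaptor Dab2, and lay down a basement membrane rich in laminin, type IV collagen and Sparc. Naive mESC correspond to the epiblast, in which most of these genes are low.

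Expression is given as the normalized count, in which reads per gene were scaled by the size factor of each library and rounded to whole numbers. Sample totals after this scaling were 18290445 to 20508679, with every NO total below every GS and DM total. The number of assigned reads was estimated at 14300000 to 27100000 per library. Pluripotency factors checked the label of the cells. *Pou5f1* was at 4276 or more and *Nanog* at 7596 or more in every sample. The lowest *Pou5f1* value was that of NO replicate 2, against 8983 and 9978 in the other NO samples. This library also stood apart among the genes that were higher in NO. Of the 1231 genes called higher in NO than in DM, 95.4% were highest in NO replicate 2, against 41.8% of all tested genes. Calls in NO that were lost without it are named as such beside their values.

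GATA factors bind the letters GATA flanked by A or T before and A or G after. As 2 of the members are GATA factors, the promoters of the other members were searched for AGATAA or AGATAG and for TGATAA or TGATAG on both strands, in windows of 250 bases before to 50 bases after each start (RefSeq, GRCm38.p6). Sequences were matched for 5 members, with 7 windows between them, and 2 windows held such a word. Of 32851 windows of 300 bases across all genes, 29.8% held at least 1 of the words and 7.77% at least 2. The windows with a word are shown with it in capitals, followed by that of *Pdgfra*, which held none. The first window of *Hnf4a* lies at chr2:163506607-163506906 on the plus strand, that of *Dab2* at chr15:6299539-6299838 on the plus strand, and that of *Pdgfra* at chr5:75152001-75152300 on the plus strand. Each is written 5′ to 3′.
Hnf4a: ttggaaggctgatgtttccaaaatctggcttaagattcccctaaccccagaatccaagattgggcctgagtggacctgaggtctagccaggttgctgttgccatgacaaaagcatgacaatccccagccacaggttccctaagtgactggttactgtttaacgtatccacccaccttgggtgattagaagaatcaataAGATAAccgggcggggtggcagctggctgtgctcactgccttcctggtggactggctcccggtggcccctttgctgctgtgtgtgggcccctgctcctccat
Dab2: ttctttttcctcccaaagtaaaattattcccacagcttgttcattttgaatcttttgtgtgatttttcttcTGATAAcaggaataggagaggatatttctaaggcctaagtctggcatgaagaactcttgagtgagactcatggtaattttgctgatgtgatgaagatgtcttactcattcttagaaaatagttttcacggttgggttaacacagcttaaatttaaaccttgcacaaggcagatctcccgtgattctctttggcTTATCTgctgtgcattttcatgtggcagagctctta
Pdgfra: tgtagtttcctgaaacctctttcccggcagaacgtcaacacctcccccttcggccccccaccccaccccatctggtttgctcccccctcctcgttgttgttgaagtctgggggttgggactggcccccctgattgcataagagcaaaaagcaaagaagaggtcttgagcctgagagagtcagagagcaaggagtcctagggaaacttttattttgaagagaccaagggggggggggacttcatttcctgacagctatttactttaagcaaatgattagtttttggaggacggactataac
*Hnf4a* held AGATAA beginning 52 bases before its start. *Dab2* held TGATAA beginning 179 bases before its start and TTATCT, which is AGATAA on the minus strand, 14 bases after it. No word was found in the windows of *Amn* and *Sparc* or in those at the second starts of *Hnf4a* and *Dab2*. A match is a description of the letters and not of binding.

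*Gata6* was the one member that passed both thresholds of the test, and it did so in NO medium, whereas each of the other tested members missed the adjusted p or the fold threshold in every comparison. The pattern over the 8 genes was uneven. *Hnf4a* had its highest mean in DM, and all other members had theirs in NO. The NO values were nearly equal for *Dab2*, at few reads. The difference rested largely on 1 or 2 of the NO samples for *Gata6*, *Pdgfra* and *Amn*.

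**Figure D1:**
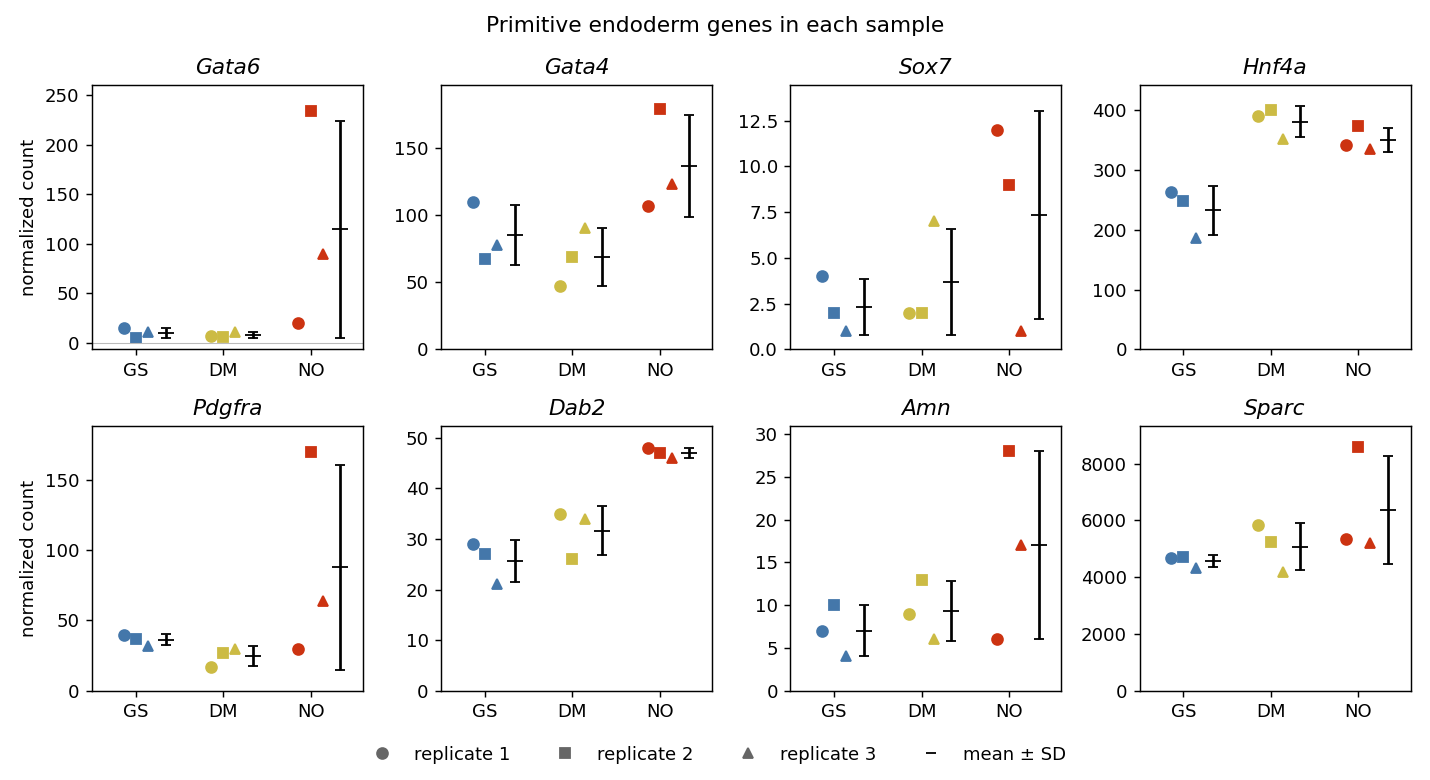
Normalized count of each of the 8 genes (vertical axis, linear, with 0 shown and scaled per gene) in the 9 samples, by medium; symbols mark replicates 1 to 3 and the bar gives the mean and SD of the 3. *Gata6*, *Pdgfra* and *Amn* are spread widely over the NO samples with replicate 2 highest, *Dab2* in NO lies between 46 and 48, and *Hnf4a* is at 335 or more in all DM and NO samples.

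Genes were called changed with a Benjamini-Hochberg adjusted p under 0.05 in the limma fit and at least a 2-fold difference. By this rule limma called 0 of the 7 tested members between DM and GS, where 4.20% of all tested genes were called and 1 member had an unadjusted p under 0.05. In NO against GS 1 member of 7 was called higher, with a background of 11.7%, and against DM again 1 of 7, with a background of 8.55%. None was called lower, nor was any lower at an unadjusted p under 0.05. For a single gene of 7 these counts are near the background and say nothing about the set. By direction, 2.94% of all tested genes were called higher and 1.27% lower in DM vs GS. These shares were 10.1% and 1.64% in NO vs GS, and 6.78% and 1.77% in NO vs DM. Counts of the gene lists below stand beside these shares and were not tested. With the adjusted p alone, 1 member passed for DM against GS (background 6.69%), 3 for NO against GS (20.0%) and 2 for NO against DM (14.2%), each time with the first-named medium higher. Values of the compared media did not overlap for 2 members between DM and GS, 1 of them lower (29.6% of all tested genes), for 4 between NO and GS (39.1%) and for 3 between NO and DM (33.4%). The median log2 fold change of the 7 members was 0.14 for DM and 0.86 for NO against GS, beside medians of -0.0007 and -0.02 over all tested genes. For NO against DM it was 0.63, beside 0.001. NO vs GS and NO vs DM share the NO samples and are not separate evidence. In such bulk samples, more cells of a type and more RNA per cell cannot be told apart.

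**Figure D2:**
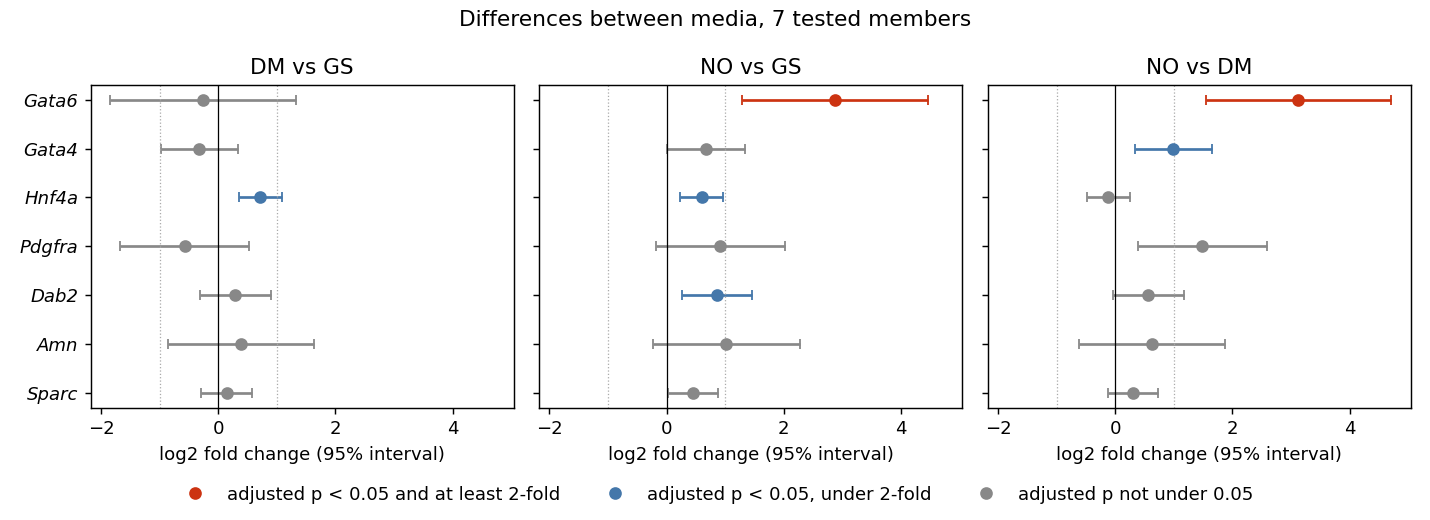
Log2 fold change with its 95% interval (horizontal axis) of the 7 tested genes in DM vs GS, NO vs GS and NO vs DM, from the limma fit on all 9 samples. Only the intervals of *Gata6* in NO lie wholly above 1, the dotted 2-fold line, whereas those marked as passing the adjusted p alone, *Hnf4a* against GS, *Dab2* in NO vs GS and *Gata4* in NO vs DM, have estimates under that line. The intervals of *Gata4* and *Sparc* in NO vs GS and of *Pdgfra* in NO vs DM also lie above 0, without an adjusted p under 0.05.

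*Gata6* encodes a zinc finger factor that stands at the head of the primitive endoderm program (ENSMUSG00000005836, GRCm38 as for all members, chromosome 18, 11052064 to 11085635, plus strand). It measured 15, 5 and 11 normalized counts in GS, 7, 6 and 11 in DM, and 20, 234 and 90 in NO. The 3 NO values all lay above the 6 others, although the lowest was close to the highest GS value. The mean ± SD (n = 3) was 10.3 ± 5.03 for GS, 8.00 ± 2.65 for DM and 114.7 ± 109.1 for NO. NO exceeded DM by a log2 fold change of 3.13 (SE 0.72, adjusted p 0.0181) and GS by 2.87 (SE 0.72, adjusted p 0.0175), with intervals of 1.54 to 4.71 and 1.28 to 4.45. DM and GS were not distinguished, with a log2 fold change of -0.26 (interval -1.84 to 1.33). With only the 6 samples compared the SE of this difference was 0.48 (adjusted p 0.786). An estimated 5.55 to 14.1 reads in the GS and 8.17 to 10.3 reads in the DM libraries lay behind these low values, against 28.5, 183 and 68.8 reads in NO.

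The size of the *Gata6* difference depended on single libraries. The highest NO value was 11.7 times the lowest. Without NO replicate 2 the log2 fold change was 2.32 in NO vs DM (adjusted p 0.0498) and 2.06 in NO vs GS (adjusted p 0.0539). The call in NO vs GS was also lost without GS replicate 2 (adjusted p 0.0734), GS replicate 3 (0.0519) or NO replicate 3 (0.0602), and that in NO vs DM without DM replicate 1 (0.0565), DM replicate 2 (0.0602) or NO replicate 3 (0.0603). Without NO replicate 1 *Gata6* was 3.80 higher than in GS and 4.06 higher than in DM on the log2 scale. In the other fits that tested it the adjusted p ranged from 0.0130 to 0.0438 in NO vs GS and from 0.0143 to 0.0493 in NO vs DM. Exons of *Gata6* overlap those of the antisense transcript 1010001N08Rik, and use of the strand in counting was not stated. That transcript was at 0 in all GS and DM samples and at 2, 6 and 3 in NO.

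*Gata4* encodes a related factor that is shared by primitive endoderm, its derivatives and the heart (ENSMUSG00000021944, chromosome 14, 63198922 to 63271692, minus strand). It measured 110, 67 and 78 in GS, 47, 69 and 90 in DM, and 107, 179 and 123 in NO. Every NO sample was above every DM sample, but GS replicate 1 exceeded NO replicate 1. *Gata4* was 0.99 higher in NO than in DM on the log2 scale (SE 0.30, interval 0.33 to 1.65, adjusted p 0.0486), just under the 2-fold threshold. The labels do not say whether equal replicate numbers mark paired samples. With the replicate number as a block, the adjusted p of *Gata4* was 0.0690 and no longer passed. Scaling to equal totals, which moved the median of all genes by 0.08, brought it past both thresholds (1.08, adjusted p 0.0357), and 3 of 9 alternative fits in all and 2 of 9 fits without 1 library kept the adjusted p under 0.05. Without NO replicate 2 the difference was 0.78 (adjusted p 0.158). Against GS it was 0.67 (adjusted p 0.138), and DM and GS differed by -0.32 (adjusted p 0.613).

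*Sox7* encodes an SRY-box factor that marks parietal endoderm and also endothelium (ENSMUSG00000063060, chromosome 14, 63943673 to 63950732, plus strand). It measured 4, 2 and 1 in GS, 2, 2 and 7 in DM, and 12, 9 and 1 in NO. The media overlapped, and unlike for *Gata6*, NO replicate 3 was among the lowest samples. These values correspond to between 0.756 and 17.1 estimated reads per library. Its mean of 4.44 was below the minimum. Fitted without a minimum, *Sox7* differed by 0.62 in NO vs DM (adjusted p 0.653) and 1.04 in NO vs GS (adjusted p 0.439).

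*Hnf4a* encodes a nuclear receptor of visceral endoderm, liver and gut (ENSMUSG00000017950, chromosome 2, 163506808 to 163572910, plus strand). It measured 264, 248 and 187 in GS, 390, 401 and 352 in DM, and 343, 374 and 335 in NO. All DM and NO samples were above all GS samples, and DM and NO overlapped. The mean ± SD (n = 3) was 233 ± 40.6 for GS, 381 ± 25.7 for DM and 350.7 ± 20.6 for NO. *Hnf4a* was 1.64-fold higher in DM than in GS by the means, a log2 fold change of 0.72 (SE 0.17, adjusted p 0.0247), and 0.60 higher in NO than in GS (adjusted p 0.0270). NO and DM differed by -0.12, with an interval of -0.48 to 0.25. The adjusted p in DM vs GS was under 0.05 in all 9 alternative fits (0.0210 to 0.0482) and in 5 of 9 fits without 1 library (0.0141 to 0.104). For NO vs GS it was so in 7 of 9 alternative fits (0.0155 to 0.0827) and in 5 of 9 fits without 1 library (0.0273 to 0.102). *Hnf4a* was thus the member whose order was DM and NO above GS, whereas for *Gata6* it was NO above GS and DM, with DM and GS not distinguished.

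*Pdgfra* encodes the receptor of platelet-derived growth factor A, an early surface marker of primitive endoderm (ENSMUSG00000029231, chromosome 5, 75152292 to 75198215, plus strand). Its exons overlap those of *Gm42802*, *Gm42803* and *Mir7025*. Reads shared between genes were left out in counting, so its counts may lack reads there. *Pdgfra* measured 40, 37 and 32 in GS, 17, 27 and 30 in DM, and 30, 170 and 64 in NO. The lowest NO sample equaled the highest DM sample, and all DM samples lay below all GS samples. The mean ± SD (n = 3) was 36.3 ± 4.04 for GS, 24.7 ± 6.81 for DM and 88.0 ± 73.0 for NO. In NO vs DM the log2 fold change of *Pdgfra* was 1.49 (SE 0.51, interval 0.38 to 2.59), a 3.57-fold ratio of the means that missed the threshold with an adjusted p of 0.0694. It was 0.84 (adjusted p 0.220) without NO replicate 2 and passed both thresholds without NO replicate 1 (2.08, adjusted p 0.00501). In NO vs GS it was 0.91 (adjusted p 0.221), and without NO replicate 1 it was 1.50 (adjusted p 0.0210). The difference of -0.57 between DM and GS did not pass in limma (SE 0.51, adjusted p 0.586). That SE includes the spread of the NO samples. With only the 6 samples compared it was 0.30, and the adjusted p was 0.284.

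The ligand *Pdgfa* took another course. It measured 2235, 2540 and 2180 in GS, 1593, 1523 and 1422 in DM, and 1775, 2616 and 2396 in NO. Every DM sample was below every other sample. *Pdgfa* was lower by -0.61 on the log2 scale in DM than in GS (adjusted p 0.0357) and 0.56 higher in NO than in DM (adjusted p 0.0337), both under 2-fold, while NO and GS differed by -0.05 (adjusted p 0.848). Of 5 PDGF ligand and receptor genes, *Pdgfa* among them, 4 were tested and limma called 0 in any comparison. At an unadjusted p under 0.05, 1 was higher and 3 lower in DM than in GS, 1 was lower in NO than in GS and 1 higher in NO than in DM.

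*Dab2* encodes a clathrin adaptor that carries receptors into the cell and is abundant in extraembryonic endoderm (ENSMUSG00000022150, chromosome 15, 6299788 to 6440712, plus strand, overlapping *Gm18888*). It measured 29, 27 and 21 in GS, 35, 26 and 34 in DM, and 48, 47 and 46 in NO. The NO samples were nearly equal and lay above all others, while GS and DM overlapped. An estimated 68.5, 36.8 and 35.2 reads lay behind the NO values, so their near equality says little about the true spread. *Dab2* was 1.83-fold higher in NO than in GS by the means, with a log2 fold change of 0.86 (SE 0.27, interval 0.26 to 1.46, adjusted p 0.0467). The difference from DM was 0.57 (adjusted p 0.183). Although *Dab2* did not depend on NO replicate 2 in size, with 0.86 also without it, its adjusted p against GS was under 0.05 in 4 of 8 alternative fits and in 1 of 9 fits without 1 library, and reached 0.327 after quantile normalization.

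*Amn* encodes amnionless, the membrane anchor of cubilin (ENSMUSG00000021278, chromosome 12, 111271095 to 111276426, plus strand). It measured 7, 10 and 4 in GS, 9, 13 and 6 in DM, and 6, 28 and 17 in NO. NO replicates 2 and 3 were the highest samples, and NO replicate 1 lay within the range of GS and DM. The log2 fold change of *Amn* was 1.02 in NO vs GS (interval -0.23 to 2.27, adjusted p 0.229) and 0.63 in NO vs DM (adjusted p 0.484). These became 0.56 and 0.18 without NO replicate 2. Without NO replicate 1 that in NO vs GS was 1.59 and passed, with an adjusted p of 0.0462.

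The receptors that work with Dab2 and amnionless did not share one pattern. *Cubn*, which encodes cubilin, measured 5, 3 and 9 in GS, 12, 12 and 15 in DM, and 8, 38 and 9 in NO, with no comparison passing (lowest adjusted p 0.143, in NO vs GS). *Lrp2*, which encodes megalin, measured 522, 598 and 463 in GS, 1377, 1464 and 1460 in DM, and 1021, 1942 and 1091 in NO. It rose in DM (1.45, SE 0.22, adjusted p 0.00203) and was higher in NO than in GS (1.30, adjusted p 0.00225, and 1.01 without NO replicate 2), with no difference passing between NO and DM (-0.15, adjusted p 0.681). Of the 4 endocytic partners tested, 2 were called higher in DM and 1 in NO than in GS, and 1 was called lower in NO than in DM. The last was *Dab1*, a neuronal adaptor related to *Dab2*, which was called higher in DM than in GS (1.61) and lower in NO than in DM (-1.31). The first call was lost without GS replicate 1 or 3 or DM replicate 1 or 2 (adjusted p up to 0.0667), and the second without any DM replicate or NO replicate 2 (-0.89, adjusted p 0.0556) or 3.

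*Sparc* encodes a collagen-binding matrix protein secreted in large amounts by parietal endoderm (ENSMUSG00000018593, chromosome 11, 55394500 to 55423183, minus strand). It measured 4667, 4711 and 4310 in GS, 5825, 5231 and 4173 in DM, and 5337, 8577 and 5222 in NO. The NO samples were above all GS samples but overlapped DM. *Sparc* was 0.44 higher in NO than in GS (interval 0.02 to 0.87, adjusted p 0.131) and 0.30 higher than in DM (adjusted p 0.315), and these differences were 0.21 and 0.07 without NO replicate 2. Per kilobase of exon *Sparc* was at 1200 normalized counts in GS and 1680 in NO. No other member came near it on that scale, the next being *Hnf4a* at 48.3 in GS and 72.6 in NO and *Gata4* at 21.8 and 34.9. *Gata6* was at 1.59 per kilobase in GS and 1.23 in DM, next to the lowest member, and at 17.6 in NO, behind *Sparc*, *Hnf4a* and *Gata4*. Without NO replicate 2 its level in NO was 8.45 per kilobase, still behind these 3 members. Of its relatives, 3 of 6 genes of the SPARC family were tested, and 1, the proteoglycan gene *Spock2*, was called higher in DM (1.98) and in NO (1.63) than in GS.

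Replicates of NO medium differed most in the same order for several members. The order replicate 2, then 3, then 1 held for 4 of the 7 tested members, namely *Gata6*, *Gata4*, *Pdgfra* and *Amn*. It held for 28.7% of all tested genes and for 89.4% of the 1231 genes called higher in NO vs DM. Relative to the mean of DM, *Gata6* was 1.26, 4.75 and 3.38 higher on the log2 scale in replicates 1, 2 and 3. *Dab2* at 0.60, 0.57 and 0.54 and *Hnf4a* at -0.15, -0.02 and -0.18 did not share this spread. Depth was higher in NO replicate 1, with 26100000 estimated reads, than in replicates 2 and 3, with 14500000 and 14300000. The part of depth in the results was not tested.

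**Figure D3:**
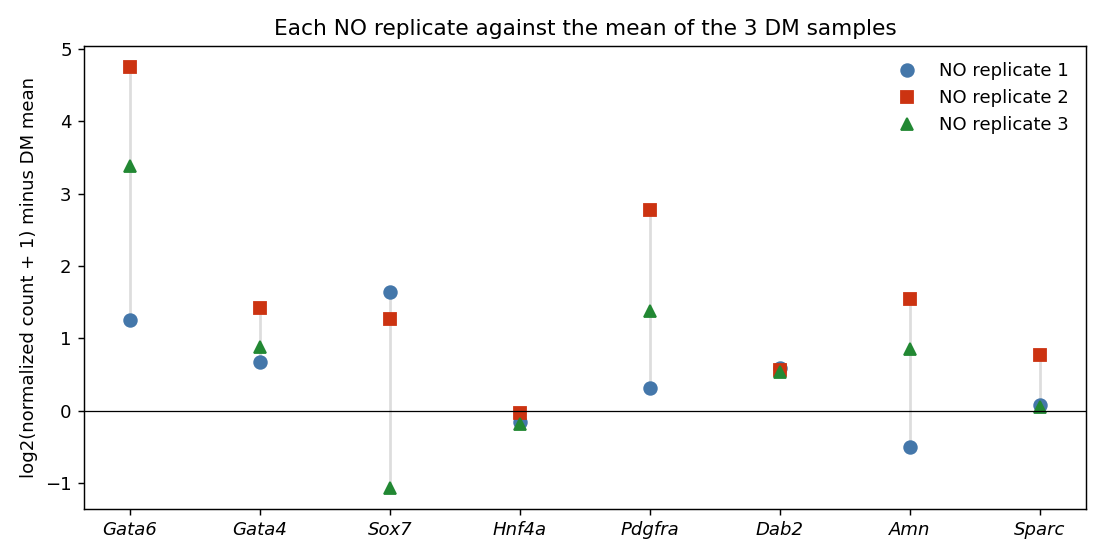
Log2(normalized count + 1) of each NO replicate minus the mean of the 3 DM samples (vertical axis) for the 8 genes; gray lines join the 3 replicates of a gene. Replicate 2 is highest for *Gata6* (4.75), *Gata4*, *Pdgfra*, *Amn*, *Sparc* and *Hnf4a*, and the replicates of *Dab2* and *Hnf4a* nearly coincide.

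Across the 9 samples *Gata6* correlated with *Pdgfra* at a Pearson r of 0.90 and with *Gata4* at 0.88, *Gata4* with *Pdgfra* at 0.88, and *Gata6* with *Hnf4a* at 0.24. These values describe the same libraries, mostly the NO replicates, and carry no test. By the same measure the genes most like *Gata6* were *Sp110* (0.99), *Cdkn2b* (0.99) and *Coro6* (0.99), and those most like *Pdgfra* were *Nat6* (0.99), *Mtus2* (0.99) and *Phc2* (0.99). *Gata4* was most like *Rab21* (0.97), *Gipc2* (0.96) and *Rec8* (0.95), and *Hnf4a* most like *Kif26a* (0.98), *Spatc1* (0.97) and *Ehbp1l1* (0.97). For *Dab2* they were *Wnt10a* (0.95) and *Itm2c* (0.95), for *Amn* *Sptan1* (0.96), *Pcdh17* (0.96) and *Otud1* (0.95), and for *Sparc* *Map3k3* (0.97), *Nek9* (0.97) and *Eps8* (0.95). Each is the highest of 18156 tested genes by choice.

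Other extraembryonic endoderm genes were counted by list. Of 7 further transcription factors 4 were tested, and limma called 1 in NO vs DM, *Hhex*, a homeobox gene of endoderm and blood, which was 1.52 higher in NO (adjusted p 0.00719). In DM vs GS 0 were called and 2 had an unadjusted p under 0.05, both lower, and against GS in NO 0 were called and 2 had such a p, both higher. *Hhex* measured 75, 89 and 110 in GS, 48, 60 and 38 in DM, and 114, 197 and 120 in NO, so that NO was above both other media and the difference also passed without NO replicate 2 (1.27). *Sox17*, which acts just after *Gata6*, measured 7, 5 and 9 in GS, 3, 11 and 20 in DM, and 10, 69 and 26 in NO, and did not pass in NO vs GS (1.81, adjusted p 0.0942) or NO vs DM (1.46, adjusted p 0.189). *Foxa2* was at 0 to 5 and *Gata5* at 0 to 8 in every sample and neither was tested. The median of the 4 tested factors was -0.57 for DM against GS, 0.37 for NO against GS and 1.16 for NO against DM. The NO vs DM median was larger for the trophoblast (1.895) and endothelium (1.495) lists described below.

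All 14 genes of basement membrane and parietal endoderm were tested. In DM vs GS 2 were called higher and 1 lower, in NO vs GS 5 higher and 1 lower, and in NO vs DM 2 higher. The shares called higher over all tested genes were 2.94%, 10.1% and 6.78% in that order. The collagen IV chains *Col4a1* and *Col4a2* were called higher in DM than in GS (1.89 and 1.43). The call of *Col4a1* was kept without each library, whereas that of *Col4a2* was lost without any 1 GS or DM replicate (adjusted p up to 0.0993) and with no variance trend. Both were higher in NO than in GS (2.44 and 2.43, and 2.04 and 1.99 without NO replicate 2), but neither passed between NO and DM (0.56, adjusted p 0.222, and 1.01, adjusted p 0.0588). *Lama1*, the alpha chain of the first embryonic laminin, fell by 1.29 in DM and was -1.09 lower in NO than in GS, or -0.92 and under 2-fold without NO replicate 2. Its partner chains differed from it, with *Lamb1* 1.05 higher in NO than in GS (adjusted p 0.00475), or 0.80 without that library, and *Lamc1* at -0.28 (adjusted p 0.163). *Plat*, tissue plasminogen activator, measured 19, 20 and 30 in GS, 9, 24 and 26 in DM, and 45, 612 and 115 in NO, a difference of 2.97 from DM that was 1.95 without NO replicate 2 (adjusted p 0.0417). Its call was lost there without DM replicate 1 or 2 or NO replicate 3, and in NO vs GS (2.66) without any GS replicate, NO replicate 3 or NO replicate 2 (1.63, adjusted p 0.0566). *Serpinh1*, a collagen chaperone, was 1.27 higher in NO than in DM and 0.96 without NO replicate 2, and its call was also lost without DM replicate 1 or 2 or NO replicate 3 (adjusted p up to 0.0597).

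Of 14 visceral endoderm genes 10 were tested. In DM vs GS 3 were called higher and 1 lower, in NO vs GS 5 higher, and in NO vs DM 1 higher, beside 2.94%, 10.1% and 6.78% of all tested genes called higher. *Apob*, the main apolipoprotein of yolk sac lipoproteins, measured 16, 18 and 38 in GS, 18, 34 and 19 in DM, and 74, 376 and 129 in NO, with every NO sample above every other. It was 2.70 higher in NO than in DM (adjusted p 0.00994), and 2.06 without NO replicate 2, and 2.73 higher in NO than in GS, and 2.09 without it. *Apoa1* was at 0 to 4 in GS and at 7, 31 and 22 in NO (2.73, adjusted p 0.0239), a call that was lost without NO replicate 2 (2.32, adjusted p 0.0849), NO replicate 3 or GS replicate 1. *Trf*, transferrin, was called higher in DM than in GS (2.02) and *Cited1* lower (-1.65). The call of *Trf* was kept in 3 of 9 fits without 1 library (adjusted p up to 0.132) and was lost with the replicate block or no minimum mean, and that of *Cited1* in 5 of 9 (up to 0.0974). *Afp*, *Apoa4* and *Ttr*, secreted products of visceral endoderm picked out after their values were seen, were at or near 0, unlike *Apob*. *Afp* was at 0 in all GS and DM samples and reached 3 in 1 NO sample, *Apoa4* reached 1 in the same way, and *Ttr* was at 0 or 1 throughout.

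**Figure D4:**
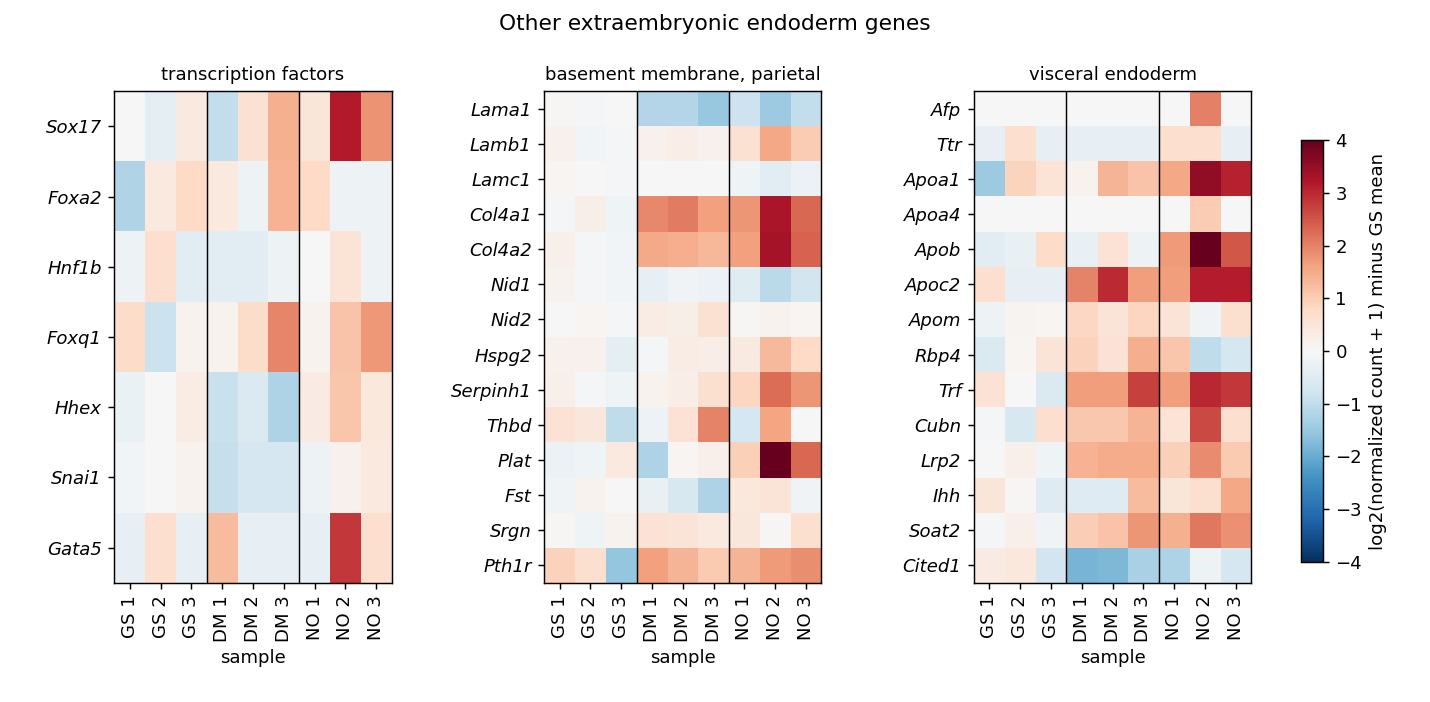
Log2(normalized count + 1) minus the mean of the GS samples (color, with values past 4 drawn at 4) for further extraembryonic endoderm genes (rows) in the 9 samples (columns), in 3 lists. Among the rows that are red in all DM and NO columns are *Col4a1*, *Col4a2*, *Lrp2*, *Trf* and *Soat2*. *Lama1* is blue there, and *Plat* and *Apob* are reddest in NO replicate 2.

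Genes related to the members by family moved in different ways. Among 8 GATA and SOXF relatives, 7 of them tested, *Gata2* fell by 2.16 in DM and was -1.55 lower in NO than in GS. *Zfpm1*, a GATA cofactor, was 1.21 higher in NO than in GS, or 0.95 and under 2-fold without NO replicate 2. *Gata3* was 1.73 higher in NO than in DM, or 1.28 without that library, and its call was lost without DM replicate 2 (adjusted p 0.0601). In DM vs GS limma called 0 of this list higher and 1 lower. Against GS, NO had 1 called higher and 1 lower, and against DM 1 higher and 0 lower. Of the 2 tested HNF relatives limma called 0 in any comparison, with 0 at an unadjusted p under 0.05.

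Upstream of the lineage, the FGF and ERK list had 3 of 10 genes called higher in DM vs GS, 2 higher in NO vs GS, and 1 lower in NO vs DM. Feedback genes of the pathway led it, namely *Dusp6* (2.36 in DM and 1.85 in NO against GS) and *Spry4* (2.46 and 1.23), and *Spry4* was -1.23 lower in NO than in DM, or -0.99 without NO replicate 2, a call also lost without DM replicate 2. *Nanog* was lower by -0.80 in DM than in GS (adjusted p 0.0311) and did not pass in NO vs GS (-0.37, adjusted p 0.203) or NO vs DM (0.43, adjusted p 0.155). Of the 8 naive pluripotency genes 1 was called lower in DM and 1 in NO against GS, *Tfcp2l1* each time (-1.47 and -1.25). In NO vs DM 0 were called, and 2 were higher at an unadjusted p under 0.05 in limma. At such a p, 6 were lower and 0 higher in DM vs GS, with a median log2 fold change of -0.56 over the list. In NO vs GS 3 were lower and 0 higher, with a median of -0.34.

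Some members are shared with heart, endothelium and connective tissue, so markers of other lineages were measured beside them. Levels were summed per list and are given for GS, DM and NO in turn. Cardiac mesoderm was at 138 to 175, 155 to 198 and 212 to 497. Endothelium was at 2998 to 4129, 2536 to 2800 and 3511 to 5388, mostly *Pecam1* (2809 to 3988, 2317 to 2600 and 2868 to 3389). Trophoblast was at 423 to 555, 241 to 274 and 359 to 1259. Fibroblast genes were at 99 to 122, 231 to 249 and 211 to 296, in DM and NO mostly *Thy1* (168 to 211 and 158 to 176). Primitive streak genes were at 497 to 607, 207 to 253 and 183 to 220. The GS and NO sums overlapped for endothelium and trophoblast. Trophoblast had 3 of 6 tested genes called higher in NO vs DM, with *Krt7* at 65, 484 and 146 in NO against 11 to 15 in DM (3.63, and 2.86 without NO replicate 2) and *Tfap2c* (2.405, and 1.95 without it). It had 2 called lower in DM vs GS, *Cdx2* (-5.09) and *Tfap2c* (-2.75), and in NO vs GS 1 higher, *Krt7* (4.51, and 3.74 without it), and 1 lower, *Cdx2* (-3.03, lost without GS replicate 2). Endothelium had 2 of 4 called higher in NO vs DM, the receptors *Tek* (2.70) and *Tie1* (2.02), and 1 in NO vs GS, *Tek* (3.51). Without NO replicate 2 *Tek* was at 2.25 and 3.06, while the call of *Tie1* was kept in only 1 of 9 fits without 1 library (1.84 without NO replicate 2, adjusted p 0.131). Cardiac mesoderm had 2 of 5 called higher in NO vs DM, *Hand1* (2.23) and *Tnnt2* (1.72), and 2 in NO vs GS, *Hand1* (2.95) and *Myh6* (1.60). *Hand1* measured 11, 111 and 33 in NO and 6 to 8 in DM, and without NO replicate 2 it was 1.41 higher than in DM (adjusted p 0.152) and 2.12 higher than in GS, where the call was kept. Without that library the calls of *Tnnt2* (1.83, adjusted p 0.0694) and *Myh6* (1.17, adjusted p 0.0651) were lost. In fits without 1 library *Hand1* against DM was called in 1 of 9, *Tnnt2* in 3 of 9 and *Myh6* in 5 of 9.

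For fibroblasts 1 of 4 tested genes was called higher in DM vs GS, *Thy1* (1.70), 2 in NO vs GS, *Col1a1* (1.49) and *Thy1* (1.47), and 1 in NO vs DM, *Col1a1* (1.56). *Col1a1* measured 39, 88 and 39 in NO, and without NO replicate 2 both its calls were lost (1.10, adjusted p 0.0697, and 1.17, adjusted p 0.0784). They were also lost without GS replicate 2 or 3 and without DM replicate 1 or 2, respectively. For the primitive streak 3 of 7 were called lower in DM vs GS, led by *T* (-5.74) and *Gsc* (-2.46). In NO vs GS 3 were lower, with *T* at -3.04, and 1 higher, *Mesp1* (3.08), and in NO vs DM *T* was 2.70 higher. Without NO replicate 2 the calls of *Mesp1* (2.49, adjusted p 0.105) and of *T* against DM (2.36, adjusted p 0.108) were lost. In fits without 1 library they were kept in 5 of 9 and 2 of 9, and *T* in NO vs GS in 8 of 9. *Cer1*, expressed in anterior visceral endoderm and definitive endoderm, was at 0 in all GS and NO samples and at 1 in 1 DM sample. Of the calls named here outside the members, 15 of 23 in NO vs GS and 7 of 15 in NO vs DM were kept without NO replicate 2. The fold changes of the 17 calls in DM vs GS do not involve that library. Whichever library was left out, 13 of 17 calls in DM vs GS, 12 of 23 in NO vs GS and 5 of 15 in NO vs DM were kept. Some markers of lineages other than primitive endoderm were thus called higher in NO as well, while others were called lower than in GS. Whether the cells that carry *Gata6* also carry such markers was not measured in these bulk samples. The part of other cell types in the values of the members was not tested.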

How the data were processed

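Total RNA libraries of mESC in GS, DM and NO were analysed, with 3 replicates per medium as the labels name them. After depletion of ribosomal RNA the authors sequenced with an Ion Torrent Proton, aligned reads to GRCm38 and counted them per gene over exons. Reads that overlapped several genes or aligned to several places were left out. The submitters' processing notes name FastQC 0.11.2, STAR 2.4.0a, featureCounts 1.4.5-p1 and DESeq2. The deposited values are a normalized score per gene, namely a count divided by a size factor and rounded to a whole number by the authors, so no count model was fitted. A column of sums over samples was not used.

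Values were analysed as log2(value + 1) with limma 3.58.1 in R 4.3.3, with all 9 samples, the media as groups and a mean-variance trend, for genes with a mean above 5. The spread was estimated over all 9 samples, so intervals and p-values of each comparison also draw on the medium left out of it. DM vs GS thus draws on the spread of the NO libraries, and NO vs DM on that of the GS libraries. A gene was called changed with a Benjamini-Hochberg adjusted p under 0.05 over all tested genes and a log2 fold change of 1 or more in either direction. Tests were two-sided. Fold changes on this scale understate changes of low genes. Depth was estimated from the spacing of low values, which gave 0.70 to 1.32 normalized counts per read. Both procedures were tested on simulated data. The limma simulation gave all media the same spread and changed no genes of low mean. It thus did not cover low genes such as *Gata6* or the wider spread of such genes in NO.

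The members and lists were chosen with earlier results of these data known. Named are the members, partners such as *Pdgfa*, *Cubn*, *Lrp2*, *Sox17*, *Foxa2*, *Nanog*, the laminin and collagen IV chains, the 2 genes of each list with the largest change past both thresholds in a comparison, and the 3 tested genes best correlated with each member, clone names skipped, of which 1 is not reported here. *Afp*, *Apoa4*, *Ttr*, *Gata5* and *Cer1* were named after their values were seen. Coordinates and exon overlaps are from a GENCODE annotation of GRCm38.

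Replicate numbers recur in each medium. Deviations from the group means of same-numbered NO and DM samples correlated at 0.16, 0.17 and 0.30. Those of same-numbered samples with GS correlated at -0.23 to 0.05. Differently numbered samples were not compared and the labels name no pairs, so whether NO and DM samples were paired is uncertain. The main fit used the medium alone, and the replicate block was an alternative. The alternatives were 11 other settings and 9 fits without 1 library.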

Additional observations from a re-analysis of the deposited data

How the results depend on the processing

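Precision was limited by 3 samples per medium and, for *Sox7*, *Gata6*, *Amn* and *Dab2*, by few reads. With no minimum fold change, members called were 1 between DM and GS, 3 between NO and GS and 2 between NO and DM. With a minimum mean of 50, which leaves *Gata6* untested, they were 0 for NO against GS and 0 against DM, and scaling to equal totals gave 2 in NO vs DM. Without 1 library at a time they ranged from 0 to 0, 0 to 3 and 0 to 3 in these comparisons. The log2 fold change of *Gata6* in DM vs GS was -0.26 and ranged from -0.66 to 0.0458 in these fits, reversed only without GS replicate 1 (0.0458). Genes of the other lists called numbered 20, 28 and 15 in the same order, and 8, 13 and 8 with a minimum log2 fold change of 2. In NO vs DM they were 6 with only the 6 samples compared, 9 without a trend and 24 with no minimum fold change. With only those samples, the NO vs DM calls of *Plat*, *Serpinh1*, *Gata3*, *Dab1*, *T*, *Hand1*, *Tnnt2*, *Tie1* and *Col1a1* were lost. Without 1 library the called genes of the other lists ranged from 15 to 23, 20 to 33 and 6 to 24. Over all tested genes 763, 2127 and 1552 were called, 505, 1206 and 936 with a minimum mean of 50, 1215, 3640 and 2587 with no minimum fold change, and 242, 926 and 660 with a minimum log2 fold change of 2. For NO against DM this count was 912 with only the 6 samples compared and ranged from 806 to 2512 without 1 library. Of 547 results of named genes outside the members under the alternatives 59 lost their call, and of 459 without 1 library 90 did. The alternatives include the other fold thresholds, which reuse the main fit. With a minimum log2 fold change of 2, every smaller change loses its call by definition, and with no minimum fold change none can. The causes of the other losses were not tested, apart from the smaller numbers of genes or samples. With the replicate block *Gata6* had an adjusted p of 0.0230 against DM and 0.0240 against GS, and members called were 0, 1 and 1 as before. In NO vs GS, where same-numbered samples correlated at -0.11 to 0.05, *Dab2* had an adjusted p of 0.0745 with the block. In NO vs GS scaling to equal totals moved the median of all genes by 0.108 and quantile normalization by -0.0981, against which differences under them should be read.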
